A study of Mus musculus with 14 samples.

Results

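A set of 10 genes known as meningeal and perivascular fibroblast genes (Col1a1, Col1a2, Col3a1, Dcn, Lum, Igf2, Slc6a13, Ptgds, Aldh1a2 and Fmod) were followed in hippocampal RNA as a sign of how much meninges each hippocampus carried. They were chosen by name, with earlier results of these data known, as 10 of the 55450 genes in the deposited table. All 10 were among the 18059 genes tested, those with 3 or more mice at an FPKM of 0.5 or above. FPKM, the deposited level, counts fragments scaled to exon length and to sequencing depth, so it can be compared between genes of different length. Poly(A) RNA of the hippocampus was sequenced, 1 library per mouse, from female C57BL/6J mice 10 weeks old. The estrogen receptor GPR30, encoded by Gper1, was intact in 3 WT mice and deleted in the whole body by CRISPR/Cas9 in 3 Δ3102 mice. In 4 AG-KO mice (GPR30 fl/fl;GFAP-Cre) Cre was driven by the promoter of GFAP, an astrocyte gene, and in 4 NG-KO mice (GPR30 fl/fl;NSE-Cre) by that of neuron-specific enolase. The same WT mice served as controls for all 3 knockouts, and floxed mice without Cre or Cre mice without the floxed allele were not analysed here. The study asked which transcripts in the hippocampus depend on GPR30 in the whole animal, in astrocytes or in neurons.

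Fibroblasts of the pia and arachnoid cover the surface of the brain and follow its larger vessels inward. They lay down fibrillar collagens and the small leucine-rich proteoglycans that bind them, carry transporters that move solutes between cerebrospinal fluid and tissue, and make retinoic acid and prostaglandin D2. A dissected hippocampus can keep some of its pial sheet and the vessels of its fissure. In bulk RNA, fewer cells of a type and less RNA per cell cannot be told apart.

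The WT mice had 0.797, 1.15 and 3.05 FPKM of Gper1, and the Δ3102 mice 0.0686, 0.145 and 0.0124, which did not overlap. Gper1 ranged from 0.540 to 1.38 FPKM in AG-KO and from 0.975 to 1.41 in NG-KO mice, within the WT range apart from the AG-KO minimum. The hippocampal field genes Prox1, Wfs1, Spink8, Neurod6 and Bok summed to 334 to 583 CPM (counts scaled to the size of the library). The libraries held 44527024 to 62669865 counts. Some libraries stood apart by genes of other tissues. The choroid plexus list summed to 2051 CPM in Δ3102 replicate 1 and to 34.7 to 380 in the other 13 mice, the hepatocyte list ranged from 2.52 to 910 CPM and the skeletal muscle list from 7.53 to 1256. Litter, dissection day and sequencing batch are not given in the sources used here.

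The fibrillar collagens were low and differed most between NG-KO and WT mice, without passing the test. Col1a1, the major chain of type I collagen (chr11:94936224-94953042 on GRCm38, plus strand), measured 1.96, 1.77 and 3.19 FPKM in WT, 1.70, 2.14 and 1.78 in Δ3102, 3.12, 1.23, 1.59 and 2.90 in AG-KO and 1.24, 1.56, 1.37 and 1.31 in NG-KO mice. All 4 NG-KO mice were below all 3 WT mice, whereas the AG-KO mice reached from the NG-KO level to nearly the highest WT value. Col1a1 was 1.37 ± 0.137 FPKM in NG-KO mice (SD, n = 4) and 2.31 ± 0.774 in WT mice (SD, n = 3). The log2 fold change was -0.74 with a 95% interval from -1.37 to -0.10 and an adjusted p of 0.470 (edgeR quasi-likelihood test, Benjamini-Hochberg over all tested genes). In the 4 comparisons of 2 genotypes made here, this was the only one in which the groups of a member did not overlap, and 6.66% of all tested genes were lower in NG-KO than in WT mice without overlap. Genes without overlap in the other direction were 4.2% of those tested. Lower and higher genes without overlap, among which there was no member, made up 6.13% and 5.4% in Δ3102 against WT, 8.3% and 5.04% in AG-KO against WT and 3.31% and 3.46% in AG-KO against NG-KO mice. Without WT replicate 3, the mouse with the highest Col1a1, the log2 fold change was -0.44. Genes of other cell types differed in the same comparisons at an unadjusted p under 0.05, where edgeR called 0 of them after adjustment. Of all tested genes, 9.16% in NG-KO against WT and 14.1% in AG-KO against NG-KO mice were under that limit. In NG-KO against WT mice 7 of 7 oligodendrocyte, 5 of 5 red cell and 3 of 6 astrocyte genes were lower. So were 2 of 8 endothelial, 2 of 8 mural and 2 of 8 choroid plexus genes, whereas 3 of 5 neuron genes were higher. In AG-KO against NG-KO mice 7 of 7 oligodendrocyte, 5 of 8 endothelial, 3 of 6 astrocyte, 2 of 5 ependymal and 2 of 8 mural genes were higher. Cell type lists with fewer than 2 such genes are not given. Their part in the collagen values was not tested.

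Col1a2, which encodes the partner chain of type I collagen (chr6:4504814-4541544, plus strand), measured 1.66, 1.29 and 2.07 FPKM in WT, 1.49, 1.51 and 1.50 in Δ3102, 2.30, 0.972, 1.14 and 1.68 in AG-KO and 0.886, 1.34, 1.15 and 1.38 in NG-KO mice. The 3 Δ3102 mice were nearly level, and the highest and lowest mice were an AG-KO and an NG-KO mouse. Its log2 fold change in NG-KO against WT mice was -0.48 (95% interval -1.03 to 0.07, adjusted p = 0.606 by edgeR). Col3a1, the chain of type III collagen (chr1:45311538-45349706, plus strand), was the lowest of the 10 genes. It measured 0.993, 0.631 and 1.03 FPKM in WT, 0.532, 0.588 and 0.651 in Δ3102, 0.731, 0.258, 0.426 and 0.714 in AG-KO and 0.325, 0.430, 0.310 and 0.689 in NG-KO mice. WT replicates 1 and 3 stood above all 11 knockout mice, and WT replicate 2 lay within their range. The log2 fold change of Col3a1 was -1.0 in NG-KO (95% interval -1.78 to -0.22, adjusted p = 0.419), -0.70 in AG-KO (-1.48 to 0.08, adjusted p = 0.390) and -0.58 in Δ3102 mice against WT (-1.41 to 0.26, adjusted p = 1.0), all by edgeR. Col3a1 was 0.886 ± 0.221 FPKM in WT mice (SD, n = 3) and 0.438 ± 0.175 in NG-KO mice (SD, n = 4), from 139 to 643 counts per library.

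**Figure D1:**
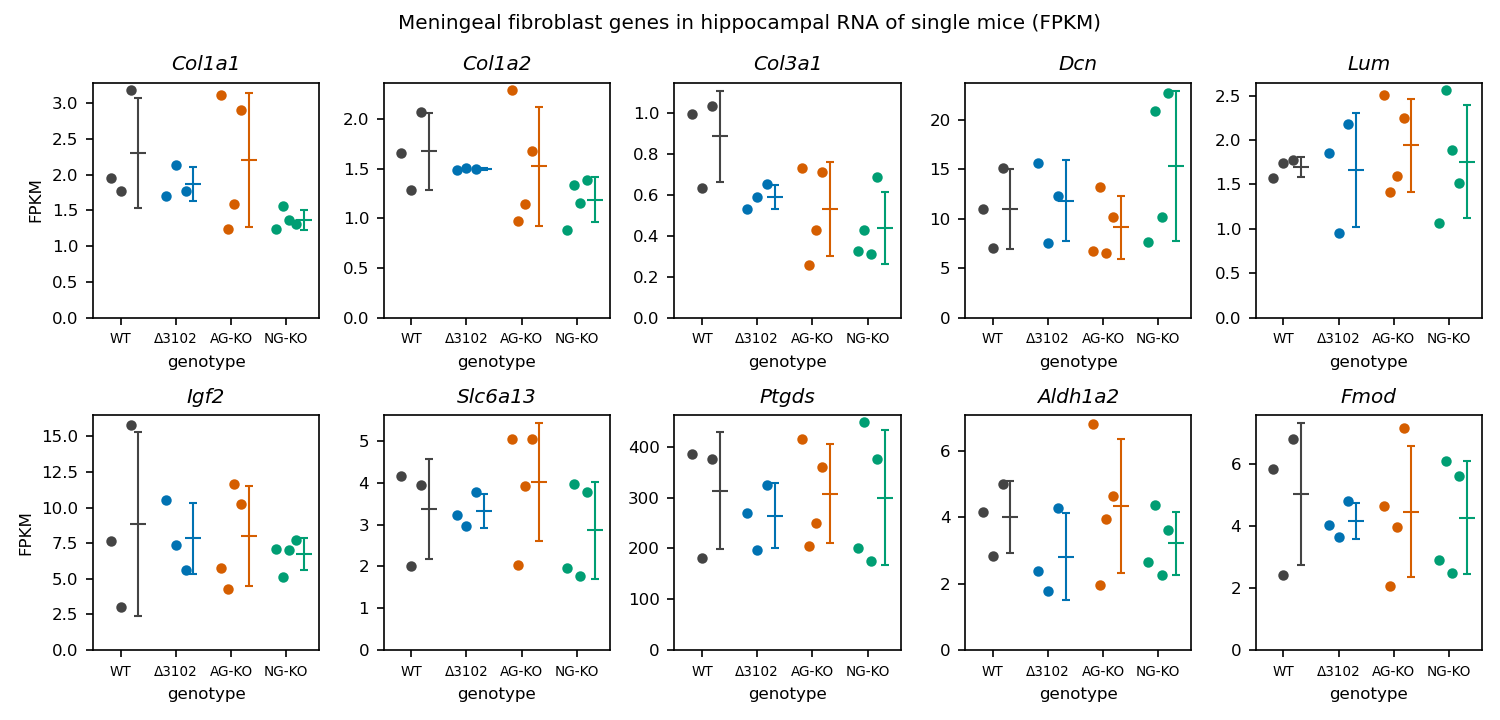
FPKM of the 10 genes (y axis, from 0, 1 panel per gene) in each mouse by genotype (x axis), where points are mice in replicate order and the bar beside them is the mean with its SD (n = 3, 3, 4 and 4). Col1a1 is the only gene with all 4 NG-KO mice below all 3 WT mice, and for the other 9 genes each knockout overlaps with WT.

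The small leucine-rich proteoglycans, which bind collagen fibrils and set their thickness, had no common pattern. Fmod, the gene of fibromodulin (chr1:134037254-134048277, plus strand), measured 5.85, 2.44 and 6.81 FPKM in WT, 4.03, 3.66 and 4.82 in Δ3102, 4.66, 2.08, 3.97 and 7.17 in AG-KO and 2.92, 6.09, 2.50 and 5.61 in NG-KO mice. Every genotype but Δ3102 held a mouse under 3 and a mouse over 6 FPKM. Lum, the gene of lumican (chr10:97565128-97572703, plus strand), measured 1.57, 1.74 and 1.78 FPKM in WT, 1.85, 0.948 and 2.19 in Δ3102, 2.51, 1.41, 1.59 and 2.25 in AG-KO and 1.06, 2.57, 1.89 and 1.51 in NG-KO mice. The WT mice were close together and inside the range of each knockout. Dcn, the gene of decorin and a neighbour of Lum on the chromosome (chr10:97479609-97518143, plus strand), measured 10.9, 6.99 and 15.1 FPKM in WT, 15.6, 7.55 and 12.3 in Δ3102, 6.71, 13.2, 6.49 and 10.2 in AG-KO and 7.60, 20.9, 10.1 and 22.7 in NG-KO mice. NG-KO replicates 2 and 4 were above every other mouse, while NG-KO replicate 1 was among the low ones. The log2 fold changes of Fmod, Lum and Dcn in NG-KO against WT mice were -0.22, 0.06 and 0.49, with 95% intervals of -1.16 to 0.72, -0.65 to 0.78 and -0.38 to 1.36.

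Igf2, an imprinted growth factor gene that leptomeninges and choroid plexus express in the adult brain (chr7:142650766-142666816, minus strand), differed most from mouse to mouse, by 5.19-fold between the lowest and the highest. It measured 7.67, 3.05 and 15.8 FPKM in WT, 10.6, 7.34 and 5.64 in Δ3102, 5.77, 4.29, 11.6 and 10.3 in AG-KO and 7.07, 5.13, 7.00 and 7.72 in NG-KO mice. WT mice held both the lowest and the highest value of all 14, and the knockouts lay between them. Igf2 shares its locus with the antisense gene Igf2os, with Mir483 and with Gm49394, and the strand setting of the authors' counting is not given in the sources used here. Igf2os was listed at up to 0.114 FPKM and Gm49394 had 0 counts in every library. Δ3102 replicate 1, which held the high choroid plexus sum, was the highest Δ3102 mouse for Igf2 at 10.6 FPKM, below WT replicate 3 with a choroid plexus sum of 138 CPM. The part of choroid plexus in Igf2 was not tested.

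Slc6a13, Ptgds and Aldh1a2 serve transport and signalling at the pial surface. Slc6a13, the transporter GAT2 for GABA and taurine (chr6:121300227-121337733, plus strand), measured 4.17, 2.00 and 3.94 FPKM in WT, 3.23, 2.97 and 3.78 in Δ3102, 5.06, 2.05, 3.93 and 5.05 in AG-KO and 1.96, 3.97, 1.78 and 3.77 in NG-KO mice. The NG-KO mice fell into a low and a high pair, and both levels occurred in WT mice. Aldh1a2, the enzyme that makes retinoic acid from retinaldehyde (chr9:71215789-71296243, plus strand), measured 4.16, 2.84 and 4.99 FPKM in WT, 2.37, 1.78 and 4.27 in Δ3102, 6.81, 1.94, 3.93 and 4.64 in AG-KO and 2.66, 4.35, 2.25 and 3.61 in NG-KO mice. The lowest and the highest AG-KO mouse enclosed all WT and NG-KO mice. Ptgds, the lipocalin-type synthase of prostaglandin D2 (chr2:25466709-25470046, minus strand), was by far the most abundant of the 10 genes with a mean of 297 FPKM, against 11.9 for Dcn, the next. It measured 385, 180 and 376 FPKM in WT, 269, 198 and 325 in Δ3102, 416, 204, 249 and 361 in AG-KO and 201, 448, 175 and 375 in NG-KO mice. NG-KO replicate 2 was the highest of all mice and NG-KO replicate 3 the lowest. The log2 fold change of Ptgds in AG-KO against WT mice was 0.00 with a 95% interval of -0.78 to 0.78, so a change of up to 1.72-fold in either direction lies within it.

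No member passed the test in any comparison of genotypes. In Δ3102 against WT mice 0 of the 10 genes had an adjusted p under 0.05 by edgeR, where 0.0111% of all tested genes did. The same count was 0 in AG-KO against WT (0.0221% of all tested genes), 0 in NG-KO against WT (0.072%), 0 in AG-KO against NG-KO mice (0.111%) and 0 in the test for any difference between the 4 genotypes (0.105%). DESeq2 and limma also called 0 members in each of the 5 comparisons, where DESeq2 called 29, 408, 165, 430 and 678 of the 18059 genes in the same order. Without AG-KO replicate 2, edgeR called 297 genes in AG-KO against NG-KO mice in place of 20, again with 0 members. At an unadjusted p under 0.05, edgeR gave 0 members in Δ3102 and 0 in AG-KO against WT mice, 0 for any difference, 2 in NG-KO against WT (Col1a1 and Col3a1) and 1 in AG-KO against NG-KO mice (Col1a1). Of all tested genes, 4.45%, 14.4%, 12.5%, 9.16% and 14.1% were under that limit in the same order. The log2 fold change of Col1a1 in AG-KO against NG-KO mice was 0.71, with a 95% interval of 0.12 to 1.3 and an adjusted p of 0.277 by edgeR. The count in NG-KO against WT mice was 0 without WT replicate 3, 1 without WT replicate 1 or without replicate 1 or 4 of NG-KO, and 3 without WT replicate 2, AG-KO replicate 1 or AG-KO replicate 2. In AG-KO against WT mice it was 1 without WT replicate 2, AG-KO replicate 1 or AG-KO replicate 4, and for any difference it was 2 without AG-KO replicate 2 and 1 without NG-KO replicate 4. The count in AG-KO against NG-KO mice was 0 without AG-KO replicate 1 or 4, 4 without AG-KO replicate 2 and 2 without NG-KO replicate 3.

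The fitted fold changes had wide intervals. In Δ3102 against WT mice 9 of 10 were below 0, with a median log2 fold change of -0.20, where the median of all tested genes was 0.00. The median was -0.06 in AG-KO against WT (all tested genes -0.01), -0.26 in NG-KO against WT (-0.02) and 0.29 in AG-KO against NG-KO mice (-0.01). These comparisons share WT or knockout mice. The members also varied together between mice, as described next, so genes of the same sign are not separate observations.

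**Figure D2:**
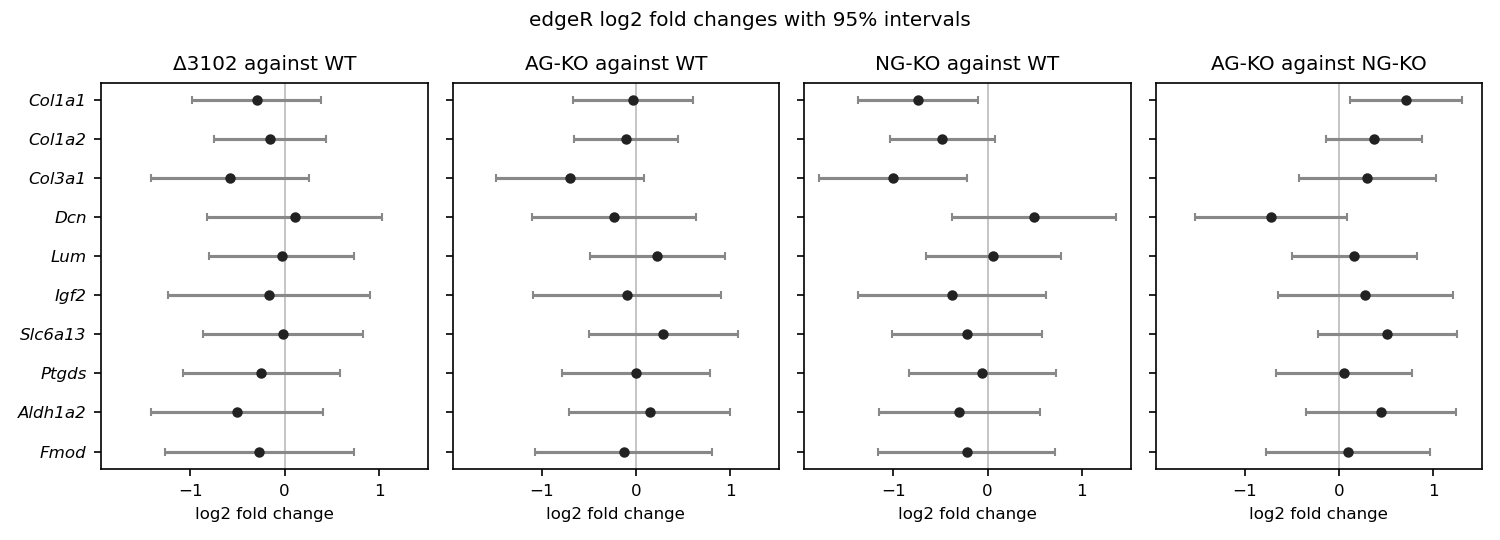
edgeR log2 fold changes (x axis) of the 10 genes (y axis) in 4 comparisons of genotypes, where points are fitted values and bars are 95% intervals. Only the intervals of Col1a1 and Col3a1 in NG-KO against WT mice and of Col1a1 in AG-KO against NG-KO mice lie clear of 0, and none of these had an adjusted p under 0.05.

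The members differed more between mice of a genotype than most genes did. The SD within genotypes, on log2(CPM + 0.1) with genotype means removed, had a median of 0.545 over the 10 genes and of 0.294 over all tested genes. It was 0.373 for Col1a2 and 0.693 for Igf2, the ends of the range, and 40.3% and 17.5% of all tested genes had a larger SD. Genotype held 43.4% of the sum of squares of Col3a1 and 37.3% of that of Col1a1, but 1.49% for Igf2, 2.02% for Fmod and 2.83% for Ptgds. The median over the members was 16.6%, below the 28.1% over all tested genes. By both medians, most of the variation lay between mice that share a genotype, so this is not particular to the members.

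Most of the members went up and down together from mouse to mouse. Averaged over the 10 genes, each scaled to a mean of 0 and an SD of 1, the level of the WT mice was 0.52, -0.74 and 1.11 and that of the Δ3102 mice 0.08, -0.52 and 0.29. The AG-KO values were 0.81, -1.12, -0.16 and 0.87 and the NG-KO values -1.06, 0.44, -0.83 and 0.32. The highest mouse, WT replicate 3, had all 10 genes above their medians, and NG-KO replicate 1 had none. Mice below and above the mean occurred in each genotype.

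**Figure D3:**
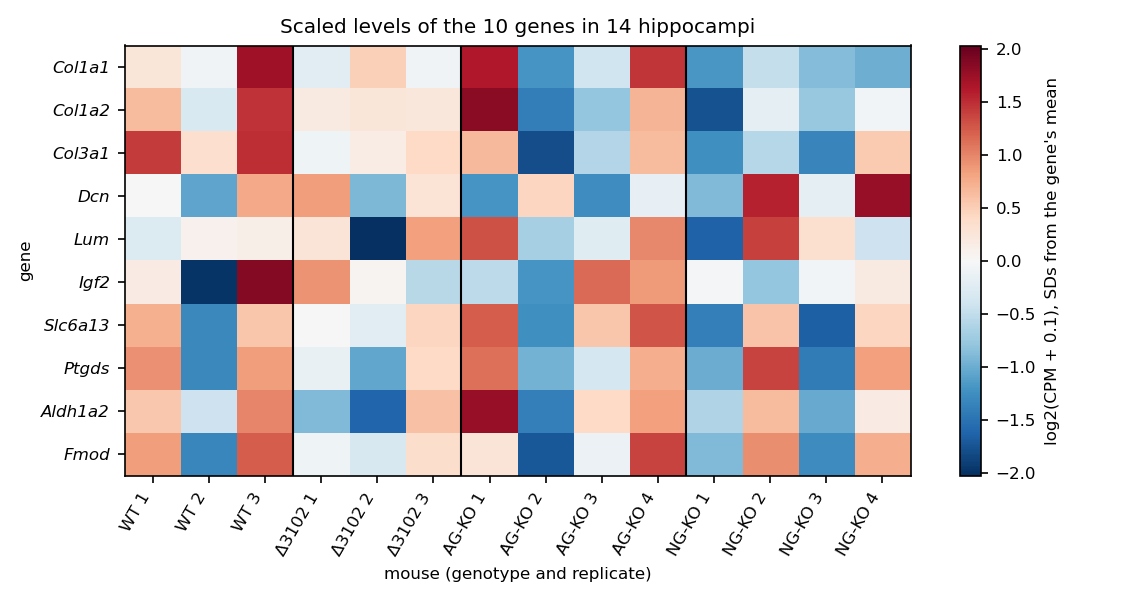
Scaled log2(CPM + 0.1) of the 10 genes (rows) in the 14 mice (columns, grouped by genotype), with color giving SDs from the mean of each gene. WT 2, AG-KO 2, NG-KO 1 and NG-KO 3 are blue in most rows, and Dcn and Igf2 depart from the other rows in several mice.

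Of the 45 pairs of members, 43 had a Pearson r above 0 over the 14 mice, with a median of 0.56. An adjusted permutation p under 0.05 over the 45 pairs was reached by 21 pairs for Pearson's r and by 15 for Spearman's rho. With genotype means removed and mice permuted within genotypes, 15 pairs passed by r and 16 by rho. Slc6a13, Ptgds, Fmod and Aldh1a2 followed each other closely, with r of 0.74 to 0.90 in their 6 pairs, 0.80 to 0.96 after genotype means were removed and 0.72 to 0.88 without the 2 mice farthest from the median. The collagens Col1a1, Col1a2 and Col3a1 were as close on log2(CPM + 0.1), with r of 0.75 to 0.90, and had 0.74 to 0.88 after genotype means were removed. Slc6a13 and Fmod, for example, had r = 0.89 (permutation p = 4e-05, adjusted 6e-04) and rho = 0.81 (p = 7.3e-04, adjusted 0.00553). Dcn and Igf2 had no pair that passed on either scale. The values of a pair come from the same libraries and share their depth.

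Col1a1 was compared with each of the other 9 genes as a separate family. It followed Col1a2 (r = 0.90, permutation p = 2e-05, adjusted 1.8e-04, and rho = 0.89, adjusted 7.2e-04) and Col3a1 (r = 0.75, adjusted p = 0.00922, and rho = 0.81, adjusted 0.00342), whose products assemble into the same fibrils. Without the 2 mice farthest from the median, WT replicate 3 and AG-KO replicate 1, r was 0.80 and 0.69. With genotype means removed, r was 0.88 and 0.74 and the adjusted permutation p over these 9 relations was 0.0595 and 0.0655, above the threshold of 0.05. Adjusted over the 45 pairs, the same deviations gave 0.0248 for Col1a2, which passed, and 0.0744 for Col3a1, so the call for Col1a2 depends on the family. Slc6a13 (r = 0.66), Aldh1a2 (0.61) and Fmod (0.60) had adjusted permutation p of 0.0342, 0.0458 and 0.0462 by Pearson's r, and of 0.0961, 0.0961 and 0.111 by Spearman's rho (0.56, 0.58 and 0.52). Leaving out WT replicate 3 and AG-KO replicate 1 gave 0.61, 0.36 and 0.56. These relations were also lost without single mice, any 1 of 5 for Slc6a13, of 9 for Aldh1a2 and of 10 for Fmod. Lum (r = 0.37), Igf2 (0.38), Ptgds (0.49) and Dcn (-0.21) did not pass, with adjusted permutation p of 0.208, 0.208, 0.113 and 0.473.

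**Figure D4:**
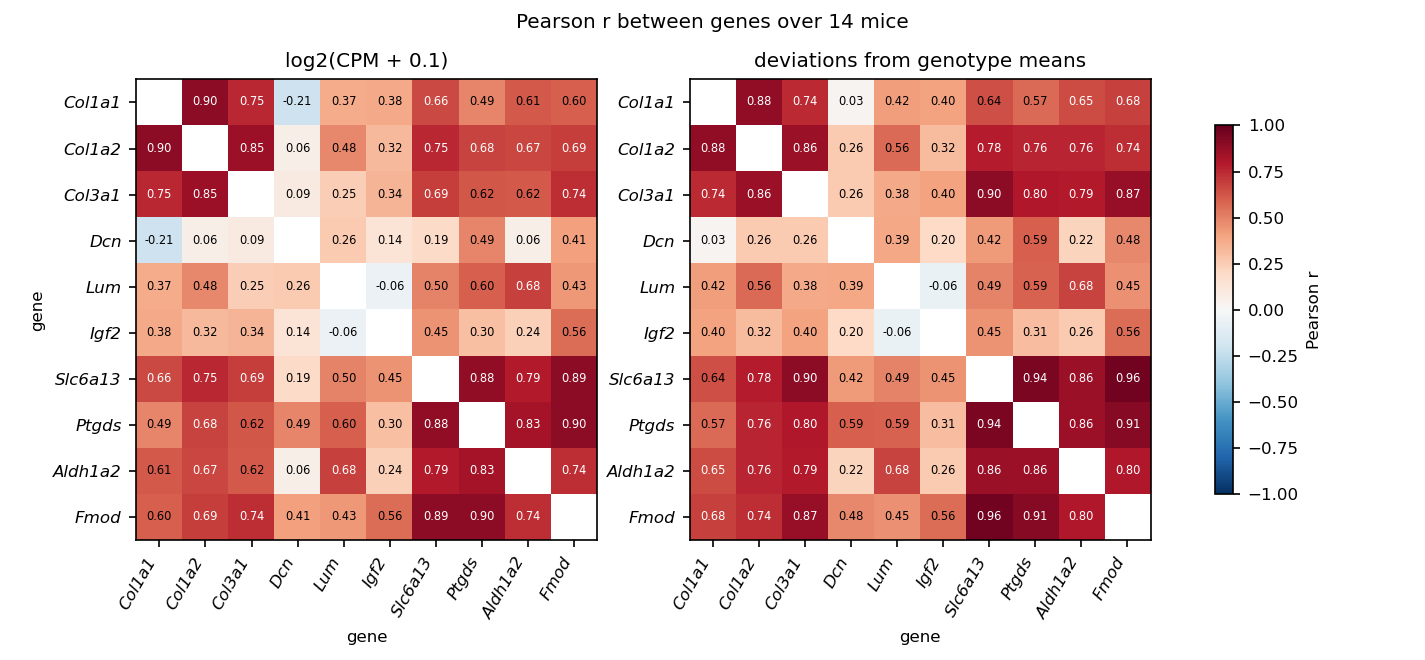
Pearson r between the 10 genes over 14 mice, on log2(CPM + 0.1) (left) and on deviations from genotype means (right), with color and printed number giving r. The block of Slc6a13, Ptgds, Aldh1a2 and Fmod holds 0.74 to 0.90 on the left and 0.80 to 0.96 on the right, and the row of Dcn holds -0.21 to 0.49 on the left.

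For Slc6a13, Ptgds, Fmod and Aldh1a2, the bases before the RefSeq start site are shown because these genes varied together. RefSeq (GRCm38.p6) windows matched 7 of the 10 members by symbol. The windows run 5′ to 3′ on the strand of the gene, end before the first exon of GENCODE vM21, and carry capitals where the TATA box TATAAA, the CAAT box CCAAT or the GC box GGGCGG was found on either strand. They lie at chr6:121300038-121300226 (plus strand), chr2:25469843-25469999 (minus strand), chr1:134037004-134037253 (plus strand) and chr9:71215539-71215788 (plus strand) in the order shown. The Ptgds window is intronic in a longer transcript of the gene, and the others lie in no intron of a GENCODE gene.
Slc6a13: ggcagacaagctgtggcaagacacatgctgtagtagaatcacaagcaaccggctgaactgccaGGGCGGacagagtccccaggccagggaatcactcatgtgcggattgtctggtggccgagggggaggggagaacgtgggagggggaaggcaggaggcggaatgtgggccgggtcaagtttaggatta
Ptgds: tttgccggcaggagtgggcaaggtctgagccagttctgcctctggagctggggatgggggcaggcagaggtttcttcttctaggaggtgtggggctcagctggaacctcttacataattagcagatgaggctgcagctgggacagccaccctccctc
Fmod: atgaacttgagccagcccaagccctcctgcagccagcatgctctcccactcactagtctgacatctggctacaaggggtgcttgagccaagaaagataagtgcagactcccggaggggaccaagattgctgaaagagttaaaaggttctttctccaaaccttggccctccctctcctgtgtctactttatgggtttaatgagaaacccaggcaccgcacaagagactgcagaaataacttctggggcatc
Aldh1a2: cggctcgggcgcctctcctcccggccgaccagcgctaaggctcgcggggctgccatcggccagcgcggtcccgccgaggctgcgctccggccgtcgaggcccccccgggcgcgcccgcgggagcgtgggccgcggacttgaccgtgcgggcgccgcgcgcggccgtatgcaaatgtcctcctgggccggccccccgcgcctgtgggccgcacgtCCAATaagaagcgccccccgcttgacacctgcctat
The 3 motifs gave 2 matches in the 4 windows, a GGGCGG 187 bases before the RefSeq start of Slc6a13, counting the 61 bases next to the start that are left out as a GENCODE exon, and a CCAAT 36 bases before that of Aldh1a2, both on the strand of the gene. GGGCGG was found in 22.6% of all 32851 RefSeq windows of the Slc6a13 length and CCAAT in 33.8% of those of 250 bases. No motif was shared by all 4 windows. These matches describe letters in the window and not binding.

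Of the 10 genes outside the list that followed the members most closely, 3 were on the list of other fibroblast genes and 1 on that of the IGF system. The others were on no list, and the lists were chosen with earlier results of these data known. The endothelial and mural lists held only 8 genes each, so their absence here says little about vessel genes. By Pearson r with the mean scaled level of the members over 14 mice, the 10 nearest genes were Bmp6 (0.88), Fbxw9 (0.87), Emilin1 (0.87), Cavin1 (0.85), Islr (0.85), Slc22a8 (0.85), Col9a2 (0.83), Igfbp2 (0.83), Maf (0.83) and Tbcd (0.83). Of the genes on lists, Bmp6 encodes a bone morphogenetic protein of the meninges and Islr a secreted protein of mesenchymal cells. Slc22a8 encodes the organic anion transporter OAT3 and Igfbp2 a binding protein for insulin-like growth factors. Fbxw9, Emilin1, Cavin1, Col9a2, Maf and Tbcd were the genes on no list. Which cells express the nearest genes was not tested. Of the 10, 5 were also among the nearest 10 with genotype means removed, and 7 when Igf2, Ptgds and Slc6a13 were left out of the mean.

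The members were set beside other fibroblast genes. These, too, were chosen with earlier results of these data known, so they give no independent check of the label. Of a list of 36 further meningeal and perivascular fibroblast genes, 30 were tested and 16 (53.3%) had r over 0.5 with the mean level of the members, with a median r of 0.54. Over all tested genes 4.39% had such an r, and the median was 0.02. Besides Bmp6, Islr and Slc22a8, the 16 included Gjb2 (r = 0.82), a gap junction gene of leptomeningeal cells, and Crabp2 (0.75), a retinoic acid binding protein. They also included Foxc1 (0.72), a transcription factor of meningeal development, and Pdgfra (0.74), which ranged only from 5.25 to 6.81 FPKM. The part of other cell types in the levels of Pdgfra and the other list genes was not tested. Collagen genes of the list that did not follow included Col12a1 (-0.01), Col6a3 (0.03), Col6a1 (0.28) and Col5a2 (0.29). Summed over the 36 genes, the level was 406 to 442 CPM in the 5 mice with the lowest level of the members (WT replicate 2, Δ3102 replicate 2, AG-KO replicate 2, NG-KO replicates 1 and 3) and 498 to 649 CPM in the other 9 mice. These 5 mice were picked after their values were seen. Of them, 4 were also among the 5 lowest mice by the endothelial sum and by the mural sum. The same held for the IGF system and small leucine-rich proteoglycan sums with members left out. The remaining lists, apart from the fibroblast genes, shared 1 to 3 of these mice.

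Dcn departed from the rest. Its r with the mean level of the members, which includes Dcn itself, was 0.33, against 0.94 for Fmod, 0.92 for Slc6a13 and 0.91 for Ptgds, and those of Igf2 (0.49) and Lum (0.61) were the next lowest. The 5 genes nearest to Dcn, named after their values were seen, were Fxyd6 (r = 0.98), Timp2 (0.96), Zwint (0.95), Ranbp17 (0.94) and Gprasp1 (0.94). None of them is on the fibroblast lists. Dcn was highest in NG-KO replicates 2 and 4, where the list of hippocampal field genes summed to 340 and 334 CPM against 431 to 583 in the other 12 mice. These mice also had the lowest oligodendrocyte sums, 1428 and 1337 CPM against 1916 to 5085 in the others. Their retinoic acid sums without Aldh1a2 were the lowest too, 154 and 147 CPM against 176 to 233. The part of hippocampal field cells or of oligodendrocytes in the Dcn values was not tested.

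Lists of other cell types were set beside the members in the same way. No gene of the choroid plexus (8 tested), ependymal (5), oligodendrocyte (7), astrocyte (6), hepatocyte (7), red cell (5) or skeletal muscle (5) lists had r over 0.5 with the mean level of the members. Of the vessel lists, 3 of 8 endothelial and 3 of 8 mural genes had such an r. With genotype means removed these were 5 of 8 (62.5%) and 4 of 8 (50.0%), beside 17 of 30 (56.7%) of the other fibroblast genes and 8.90% of all tested genes, so on that scale vessel genes had shares like that of the fibroblast list. Ptgds is also made by oligodendrocytes, whose 7 genes summed to 1337 to 5085 CPM. The sum was highest in WT replicate 2, which had the lowest Ptgds of the WT mice (180 FPKM). It was 1428 CPM in NG-KO replicate 2, the mouse with the highest Ptgds (448 FPKM). Other mice went the other way. AG-KO replicate 1 had a sum of 4086 CPM with 416 FPKM of Ptgds, and NG-KO replicate 3 had 2005 CPM with the lowest Ptgds (175 FPKM). The part of oligodendrocytes in the Ptgds values was not tested. The choroid plexus sum of Δ3102 replicate 1 went with a mean scaled level of 0.08, near the middle of the 14 mice. The part of choroid plexus in the member levels was not tested.

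**Figure D5:**
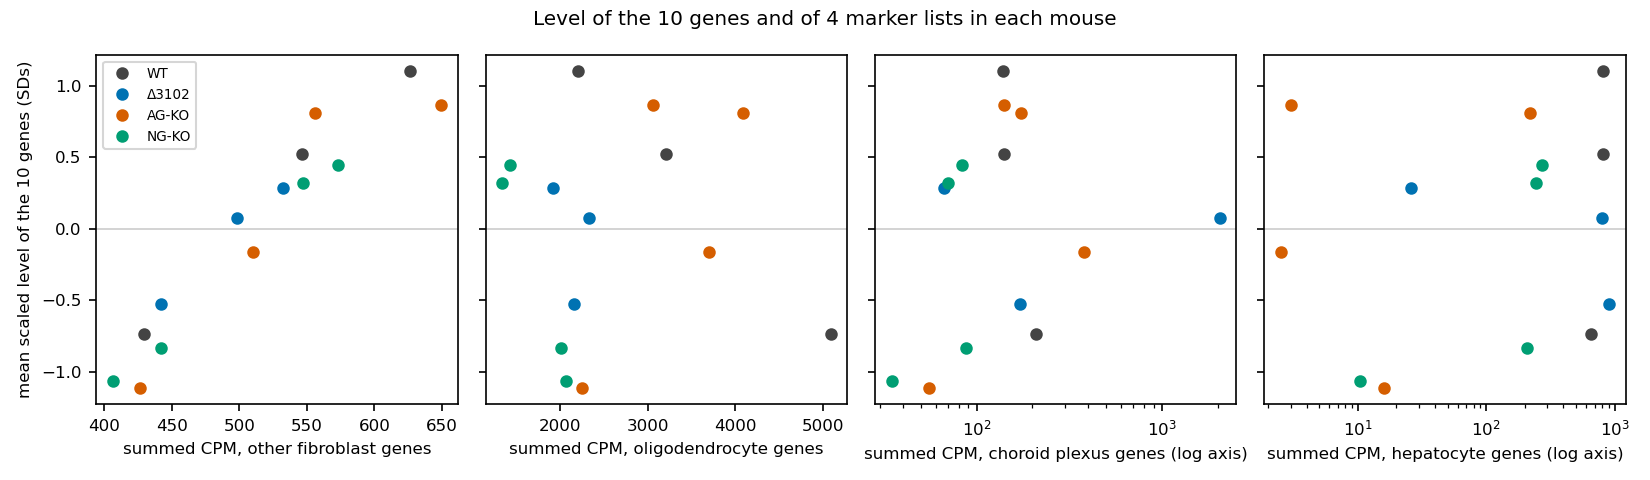
Mean scaled level of the 10 genes (y axis, in SDs) against the summed CPM of other fibroblast, oligodendrocyte, choroid plexus and hepatocyte genes (x axes, log scale for the last 2), 1 point per mouse colored by genotype. Mice with a low level of the 10 genes have 406 to 442 CPM of other fibroblast genes and the other mice 498 to 649. Δ3102 replicate 1 stands alone at 2051 CPM of choroid plexus genes near the middle of the y axis. The endothelial and mural sums are not shown.

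The wider pathways of the members also held no called gene. Adjusted p under 0.05 was reached by 0 of 21 tested collagen processing genes, 0 of 7 small leucine-rich proteoglycan genes, 0 of 12 genes of the IGF system, 0 of 4 GABA transporters, 0 of 4 genes of the prostaglandin D system and 0 of 14 genes of the retinoic acid system, in each of the 5 comparisons by edgeR. Of the 30 other fibroblast genes 0 were called, and at an unadjusted p under 0.05 there were 2 in Δ3102 against WT (both lower), 4 in AG-KO against WT (1 higher, 3 lower), 6 in NG-KO against WT (all lower) and 6 in AG-KO against NG-KO mice (all higher). Of the 21 collagen processing genes, 0, 4 (3 higher, 1 lower), 4 (1 higher, 3 lower) and 7 (all higher) were under that limit in the same order. Of all tested genes, 4.45%, 14.4%, 9.16% and 14.1% were under it in either direction. In Δ3102, AG-KO and NG-KO against WT and in AG-KO against NG-KO mice, the genes under it numbered 0, 1, 0 and 0 of 7 small leucine-rich proteoglycan genes, 1, 0, 2 and 4 of 12 in the IGF system and 0, 2, 1 and 2 of 4 GABA transporters. They numbered 1, 0, 0 and 0 of 4 in the prostaglandin D system and 0, 3, 1 and 2 of 14 in the retinoic acid system. Serpinh1, the chaperone that folds procollagen, had the smallest adjusted p of these lists in AG-KO against NG-KO mice (0.0563 by edgeR, log2 fold change 0.56, 95% interval 0.35 to 0.77) and was singled out after its value was seen. With the members it had r = 0.43, and in its list only Pcolce, an enhancer of procollagen cleavage, had r over 0.5 (0.72). Slc6a12, the betaine and GABA transporter BGT1, was the GABA transporter nearest to the members with r = 0.72.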

How the data were processed

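Hippocampal poly(A) RNA of 14 mice was sequenced, 1 library per mouse. Per the labels and the study's methods, the authors trimmed reads with cutadapt 1.9, aligned them to GRCm38 with HISAT2 2.0.4 and assembled transcripts with StringTie 1.3.4d. They deposited 1 table of raw counts and FPKM per gene. The counting program and its strand setting are not given in the sources used here. Gene IDs matched GENCODE vM21 for all 55450 rows.

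Here the deposited counts of 18059 genes with FPKM of at least 0.5 in at least 3 libraries were tested with the quasi-likelihood test of edgeR 4.0.16 (R 4.3.3), with TMM scaling and all 14 libraries in 1 fit. Tests were two-sided, and p-values were adjusted by Benjamini-Hochberg over all tested genes, with a threshold of 0.05. Intervals are 95% Wald intervals. DESeq2 1.42.0 and limma 3.58.1 on log2(FPKM + 0.1) were alternatives. Scripts were tested on simulated data. Levels for correlations were log2(CPM + 0.1), with permutation p from 100000 resamples, or from all 20736 orders within genotypes for deviations from genotype means. The depth was 44527024 to 62669865 counts, and no 2 libraries held identical counts.

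All 10 members were named, with the 10 genes nearest to their mean scaled level, list genes with an adjusted p under 0.05 (0 genes) and Gper1. Other genes named were chosen after their values were seen. The members and lists were chosen with earlier results of these data known.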

Additional observations from a re-analysis of the deposited data

How the results depend on the processing

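The count of members called was 0 under each of the 23 alternatives for the 4 comparisons of 2 genotypes and under the 22 for any difference. The lowest adjusted p of a member under any of them was 0.0779 by edgeR (Col1a1, AG-KO against NG-KO mice, without AG-KO replicate 2). Col3a1 was not tested with an FPKM minimum of 1. Of the 40 log2 fold changes of members, 20 kept their sign under every alternative and 20 changed it under at least 1, none of which passed the test, and the cause was not tested. Counts over all tested genes moved more. In the order Δ3102, AG-KO and NG-KO against WT, AG-KO against NG-KO and any difference, edgeR called 2, 4, 13, 20 and 19 genes and DESeq2 29, 408, 165, 430 and 678. Leaving out 1 library gave 2 to 10, 1 to 82, 8 to 19, 13 to 297 and 14 to 43, where the 82 and the 297 came without AG-KO replicate 2. With only the groups compared in the fit, edgeR called 0, 7, 15 and 13 genes in the 4 comparisons of 2 genotypes, and limma on log2(FPKM + 1) called 14 in AG-KO against WT mice.

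Replicate numbers are shared between genotypes. A correlation of deviations over 0.1 was found in 6 of 19 same-numbered pairs of mice and in 15 of 54 differently numbered pairs. The medians were -0.014 and 0.00027, so the numbers gave no sign of pairing the mice. With the replicate block, all tested genes called were 1, 1, 5, 9 and 9 in the same order and members called were 0 in each. The block turned the log2 fold change of Igf2 (0.11) and Slc6a13 (0.015) in Δ3102 against WT, of Ptgds in AG-KO against WT (-0.10) and of Fmod in AG-KO against NG-KO mice (-0.034). Without a filter on low values, Ptgds in AG-KO against WT was -0.0014. By limma with pseudocounts of 0.1, 1 and 0.01 FPKM, Igf2 in Δ3102 against WT was 0.075, 0.039 and 0.079, Slc6a13 there was 0.044, 0.023 and 0.048, Igf2 in AG-KO against WT was 0.034, 0.0096 and 0.038, and Ptgds there was -0.0052, -0.0053 and -0.0052. Lum in NG-KO against WT was -0.016 with 0.1 and -0.020 with 0.01 FPKM.

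Leaving out 1 library at a time moved these log2 fold changes across 0. In Δ3102 against WT mice the ranges were -0.31 to 0.012 for Col1a2, -0.14 to 0.39 for Dcn, -0.27 to 0.25 for Lum, -0.57 to 0.54 for Igf2, -0.28 to 0.18 for Slc6a13 and -0.59 to 0.00035 for Fmod. In AG-KO against WT mice they were -0.22 to 0.26 for Col1a1, -0.35 to 0.059 for Col1a2, -0.47 to 0.045 for Dcn, -0.50 to 0.61 for Igf2, -0.28 to 0.19 for Ptgds, -0.13 to 0.39 for Aldh1a2 and -0.46 to 0.14 for Fmod. In NG-KO against WT mice they were -0.18 to 0.24 for Lum, -0.78 to 0.33 for Igf2, -0.33 to 0.14 for Ptgds and -0.55 to 0.044 for Fmod, and in AG-KO against NG-KO mice -0.012 to 0.40 for Lum, -0.13 to 0.31 for Ptgds and -0.24 to 0.33 for Fmod.

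With genotype means removed, the r of Col1a1 with Col1a2 (0.88), Col3a1 (0.74), Slc6a13 (0.64), Aldh1a2 (0.65) and Fmod (0.68) no longer passed over the 9 relations, although that with Col1a2 passed over the 45 pairs (adjusted p = 0.0248), and that with Dcn turned to 0.027. Leaving out 1 library gave r of 0.87 to 0.93 for Col1a2 and 0.69 to 0.84 for Col3a1, both past the threshold each time. It gave 0.60 to 0.73 for Slc6a13, not past the threshold without AG-KO replicate 1, 2 or 4 or NG-KO replicate 1 or 3. The range was 0.49 to 0.77 for Aldh1a2 (lost without any 1 of 9 mice) and 0.52 to 0.70 for Fmod (lost without any 1 of 10), and 0.41 to 0.60 for Ptgds, which passed without NG-KO replicate 4. With FPKM in place of CPM the median SD within genotypes was 0.54 for the members and 0.28 for all tested genes.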
